A study of Mus musculus with 12 samples.

Results

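Retinal mRNA of 10 genes was followed at P18, the neurotrophic factors Bdnf, Ntf3, Gdnf and Hgf and the receptors Ntrk2, Ntrk3, Ngfr, Gfra1, Ret and Met. They were taken by name from a table of 36131 genes, and each of the 10 symbols matched 1 row. Whole retinas of 12 C57BL/6J wildtype mice were sequenced, 1 library per mouse. RA-PBS (animals 1 to 4) stayed in room air and received the placebo PBS. O2-PBS (animals 5 to 8) entered 75% O2 at P7, returned to room air at P12 and received PBS, which is the oxygen-induced retinopathy (OIR) model. O2-IC100 (animals 9 to 12) had the same oxygen exposure and received IC100, a humanized antibody against the inflammasome adaptor ASC, at 10 µg/g on P12, P14 and P16. The labels give both treatments as intraperitoneal, whereas the study's text describes the placebo as injected into the eye. The comparisons ask what oxygen exposure did to these genes, what IC100 did after it, and how far the treated retina then stood from room air.

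Neurotrophins are secreted proteins that sustain neurons and shape their synapses. BDNF binds TrkB (Ntrk2), NT-3 binds TrkC (Ntrk3), and the p75 receptor (Ngfr) binds neurotrophins and their precursors. GDNF acts through GFRA1, a receptor held on the membrane by a lipid anchor, and the kinase RET. HGF is secreted as an inactive chain, is cut by serine proteases and then activates the kinase MET. In the retina, ganglion cells depend on BDNF, Müller glia carry TrkB and p75, and HGF is known as a survival and angiogenic factor.

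The 12 libraries held 14907142.6 to 24438082.2 counts. Values are normalized CPM (counts scaled to a common library total, with TMM factors) over all 12 animals, on which 3 counts correspond to 0.144 to 0.379. The lens stood out in animal 10 of O2-IC100, where 18 lens markers took 50.9% of all counts and 9 rod photoreceptor markers 0.3222%, against 3.722 to 4.62% for rods in the other 11 retinas. Lens markers also took 1.091 to 4.047% in RA-PBS animals 2, 3 and 4, and at most 0.01196% in the 8 retinas left. The 5 markers of myelinating glia summed to 4250 CPM in RA-PBS animal 4 and to 27 to 447 in the others. The 4 Y-linked genes summed to 223 to 324 in animals 1, 2, 3, 8, 9, 11 and 12 and to 4.04 to 9.85 in animals 4, 5, 6, 7 and 10, so 1 of 4 O2-PBS libraries but all 3 O2-IC100 libraries other than animal 10 had them at the high level. Each comparison of a member is therefore given for the fit of all 12 animals and for the fit without animal 10, and group means of O2-IC100 below leave animal 10 out unless it is named.

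Of the 10 genes, 8 had enough counts to be tested, and Ntf3 and Gdnf did not. A gene was called when its fold change was at least 1.5, its p-value under 0.05 and its Benjamini-Hochberg adjusted p-value under 0.1 in edgeR's two-sided quasi-likelihood test over all genes, and every adjusted p-value below is of this test unless another tool is named. In the fit of all 12 animals 0 of the 8 were called in any comparison. That fit called 0.807% of 16489 genes between O2-PBS and RA-PBS (0.782% higher and 0.0243% lower in O2-PBS), and 0 genes in either comparison of O2-IC100, where 2784 genes against O2-PBS and 2183 against RA-PBS had an unadjusted p-value under 0.05, among them 2 and 3 of the 8. With all 12 animals DESeq2 called 125 and limma voom 2 genes between O2-IC100 and O2-PBS, and 299 and 2 between O2-IC100 and RA-PBS. Without animal 10, Hgf fell in O2-PBS against RA-PBS, Bdnf rose in O2-IC100 against O2-PBS, and 0 of the 8 were called between O2-IC100 and RA-PBS. The background of that fit was 6.27% of 16688 genes between O2-PBS and RA-PBS (4.09% higher, 2.18% lower). It was 0.947% between O2-IC100 and O2-PBS (0.216% higher, 0.731% lower) and 1.56% between O2-IC100 and RA-PBS (0.947% higher, 0.617% lower). The 2 comparisons with RA-PBS share its animals, and so do the 2 comparisons with O2-PBS.

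**Figure D1:**
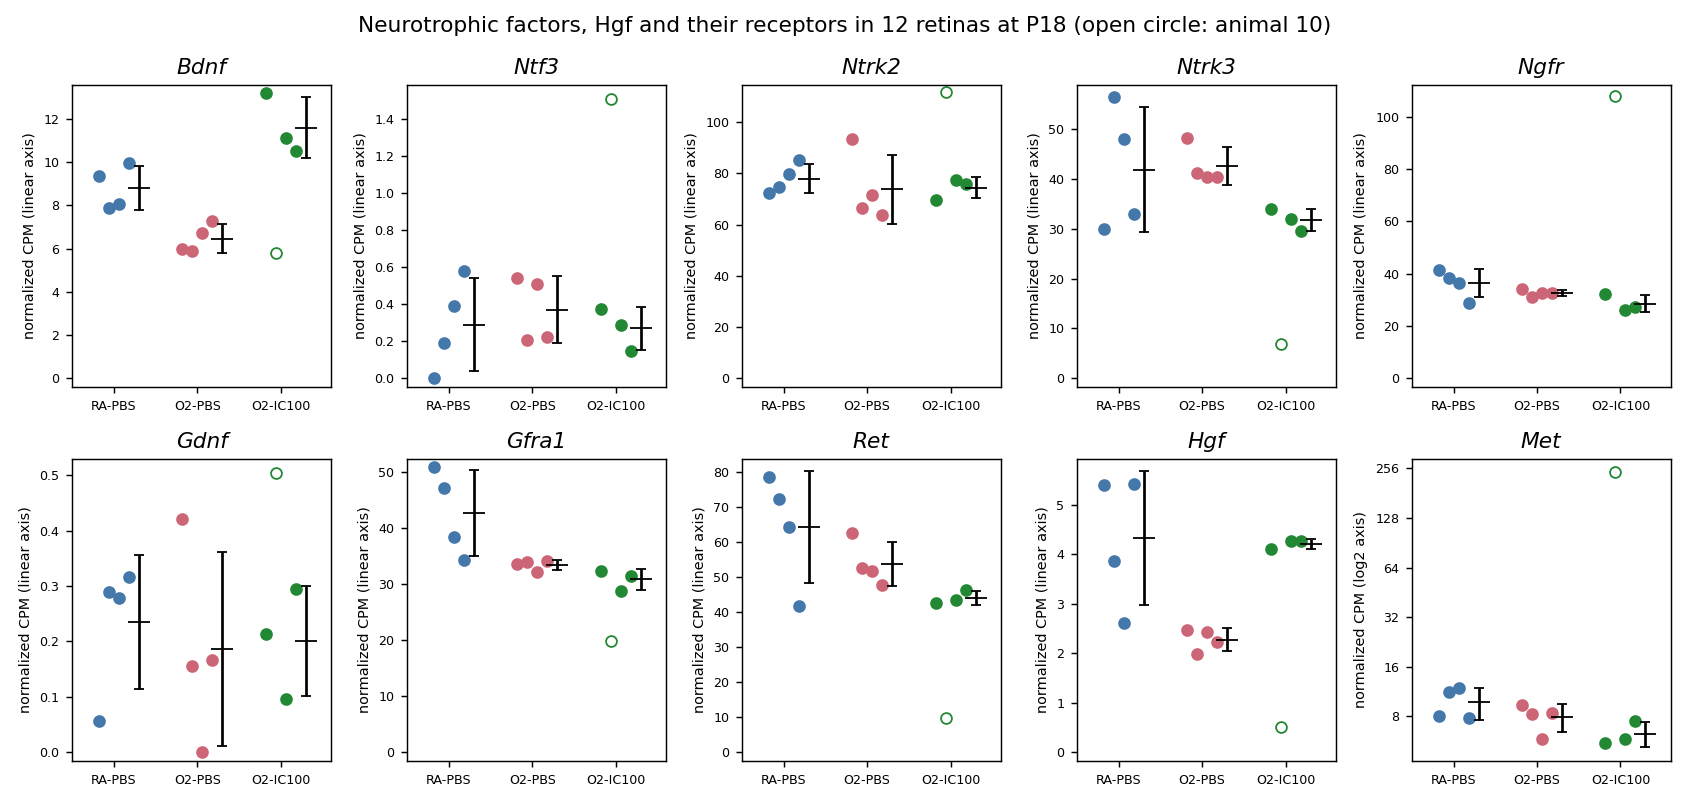
Normalized CPM (y axis, linear from 0 except Met, which has a log2 axis) of the 10 genes in each of 12 retinas (points) by group (x axis). Bars show the mean and SD without animal 10, which is drawn as an open circle. Hgf runs from 1.98 to 2.47 in O2-PBS, below all RA-PBS points, and Bdnf from 10.5 to 13.2 in O2-IC100 animals 9, 11 and 12, above all other points.

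Bdnf rose in O2-IC100 against O2-PBS when animal 10 was left out. It encodes BDNF, the main ligand of TrkB. Its 4 RA-PBS retinas had 9.37, 7.87, 8.05 and 9.95 normalized CPM. In O2-PBS the values were 5.97, 5.89, 6.73 and 7.26. In O2-IC100 animals 9, 11 and 12 had 13.2, 11.1 and 10.5, and animal 10 had 5.81. Every O2-PBS value lay below every RA-PBS value, and animals 9, 11 and 12 lay above both groups, whereas animal 10 lay below all other retinas.

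Group means of Bdnf were 8.81 ± 1.01 (SD, n = 4) in RA-PBS, 6.46 ± 0.653 (SD, n = 4) in O2-PBS and 11.6 ± 1.4 (SD, n = 3) in O2-IC100. Between O2-IC100 and O2-PBS the log2 fold change was 0.86 ± 0.15 (SE), 1.82-fold, with an edgeR adjusted p of 0.0327. It was 0.66 ± 0.23 (SE) with an adjusted p of 0.287 with all 12 animals. Between O2-PBS and RA-PBS the log2 fold change was -0.45 ± 0.14 (SE) without animal 10, which passed the adjusted p threshold (0.0623) but not the minimum fold (1.36-fold), and the same -0.45 ± 0.23 (SE) with all 12 animals had an adjusted p of 0.79. O2-IC100 stood 1.33-fold above RA-PBS, a log2 difference of 0.41 ± 0.14 (SE) with an adjusted p of 0.183, which was 0.21 ± 0.22 (SE) with 0.639 when animal 10 was kept. In bulk retina, a change in the number of cells that make a transcript and a change in its amount per cell cannot be told apart.

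The Bdnf call between O2-IC100 and O2-PBS rested on few animals. It was lost when animal 5, 9, 11 or 12 was left out together with animal 10 (adjusted p 0.106 to 0.193), and with the Y-linked level as a covariate (adjusted p = 0.118), while the log2 fold change stayed between 0.76 and 0.93 over the 18 further fits without animal 10, of which 13 called it. Among retinas with high Y-linked levels, Bdnf was 7.87 to 9.37 in 3 of RA-PBS, 7.26 in the single one of O2-PBS and 10.5 to 13.2 in 3 of O2-IC100. Among those with low levels it was 9.95 in 1 of RA-PBS and 5.89 to 6.73 in 3 of O2-PBS. Their part in the result was not tested beyond the covariate. Gm45346, an antisense gene, overlaps exons of Bdnf. Since use of strand in counting is not stated, reads from the overlapping stretch may come from either gene.

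Bdnf has 7 promoters in the RefSeq table used here (GRCm38.p6), and the counts are per gene, so which of them was active was not measured. Shown here because Bdnf was called are the 250 bases upstream of start 1 and start 3, both on the plus strand, the 2 of the 7 that hold ACGTG. Capitals mark matches on either strand to ACGTG or GCGTG, forms of the core that hypoxia-inducible factors bind, and to TGACG, the core of the element bound by CREB, a factor through which neuronal activity drives Bdnf.
Bdnf start 1, chr2:109674450-109674699: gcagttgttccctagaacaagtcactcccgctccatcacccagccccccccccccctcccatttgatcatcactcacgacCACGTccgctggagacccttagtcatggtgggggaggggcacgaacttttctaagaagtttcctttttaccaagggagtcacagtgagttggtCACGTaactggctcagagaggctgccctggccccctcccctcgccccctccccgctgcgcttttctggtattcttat
Bdnf start 3, chr2:109692186-109692435: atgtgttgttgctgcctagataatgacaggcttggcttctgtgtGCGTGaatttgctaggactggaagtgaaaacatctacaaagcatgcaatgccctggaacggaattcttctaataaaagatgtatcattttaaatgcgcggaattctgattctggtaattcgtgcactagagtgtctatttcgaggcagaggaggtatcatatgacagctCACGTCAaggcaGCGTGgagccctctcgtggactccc
Start 1 has ACGTG at -170 and -77 from the start. Start 3 has ACGTG at -37 overlapping TGACG at -35, and GCGTG at -206 and -25. Of 32851 upstream windows of the same length, 16.6% hold ACGTG, 28.2% GCGTG and 17.8% TGACG, so such matches are common.

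Ntrk2, which encodes TrkB, the kinase receptor of BDNF, differed little between groups. The RA-PBS retinas had 72.3, 74.8, 79.9 and 85.1 normalized CPM and the O2-PBS retinas 93.5, 66.5, 71.6 and 63.6. O2-IC100 animals 9, 11 and 12 had 69.8, 77.6 and 76, and animal 10 had 112. Without animal 10 the 3 groups overlapped, and animal 5 of O2-PBS was the highest of the 11. The log2 fold change was -0.08 ± 0.11 (SE) for O2-PBS against RA-PBS, 0.03 ± 0.12 (SE) for O2-IC100 against O2-PBS and -0.05 ± 0.12 (SE) for O2-IC100 against RA-PBS, with edgeR adjusted p-values of 0.715, 0.908 and 0.863. These were fits without animal 10, and with all 12 animals the values were -0.08 ± 0.17 (SE), 0.18 ± 0.17 (SE) and 0.10 ± 0.17 (SE), with adjusted p-values of 1, 0.559 and 0.771. These are gene totals, which add the kinase form of TrkB to its truncated forms.

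Ntf3 encodes NT-3, the ligand of TrkC, and was close to the limit of detection. Its counts were 0, 4, 7 and 11 in RA-PBS, 9, 4, 9 and 4 in O2-PBS, and 7, 12, 6 and 3 in animals 9, 10, 11 and 12. Counts this low kept the gene from being tested, so a difference between groups was not assessed.

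Ntrk3, the gene of TrkC, varied most within RA-PBS. Animals 2 and 3 had 56.4 and 48.1 normalized CPM and animals 1 and 4 had 30 and 32.9. In O2-PBS animal 5 had 48.2 and the others 41.2, 40.3 and 40.4. O2-IC100 animals 9, 11 and 12 had 33.9, 31.9 and 29.5, all below O2-PBS but level with RA-PBS animals 1 and 4, and animal 10 had 6.94. Means were 41.9 ± 12.5 (SD, n = 4), 42.5 ± 3.81 (SD, n = 4) and 31.7 ± 2.23 (SD, n = 3). O2-IC100 against O2-PBS gave a log2 fold change of -0.41 ± 0.18 (SE) with an edgeR adjusted p of 0.242, and against RA-PBS -0.38 ± 0.18 (SE) with 0.319. With all 12 animals these were -0.73 ± 0.38 (SE) and -0.71 ± 0.38 (SE), with adjusted p-values of 0.336 and 0.394. Neither difference passed the thresholds. O2-PBS against RA-PBS gave 0.02 ± 0.16 (SE) without animal 10 and 0.02 ± 0.38 (SE) with it, with adjusted p-values of 0.952 and 1.

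Ngfr, the gene of the p75 receptor, had 41.5, 38.5, 36.5 and 28.8 normalized CPM in RA-PBS, with animal 4 the lowest. O2-PBS retinas were close to each other at 34.1, 31.2, 32.5 and 32.5. Animals 9, 11 and 12 of O2-IC100 had 32.2, 26 and 27.4, and animal 10 had 108. The direction of the comparison therefore turned on animal 10. O2-IC100 against O2-PBS had a log2 fold change of 0.57 ± 0.40 (SE) with it and -0.18 ± 0.12 (SE) without it, and against RA-PBS 0.41 ± 0.40 (SE) with it and -0.34 ± 0.12 (SE) without it. The edgeR adjusted p-values were 0.449 and 0.41 in the first comparison and 0.613 and 0.196 in the second, so none of the 4 was called. O2-PBS against RA-PBS gave -0.16 ± 0.11 (SE) without animal 10 and -0.16 ± 0.40 (SE) with it, with adjusted p-values of 0.445 and 1.

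No difference in the GDNF receptors passed all thresholds. Gdnf itself, the ligand, had 1, 6, 5 and 6 counts in RA-PBS, 7, 3, 0 and 3 in O2-PBS and 4, 4, 2 and 6 in O2-IC100. These were too few for the gene to be tested. Gfra1, the co-receptor that binds GDNF, had 50.8, 47.2, 38.4 and 34.2 normalized CPM in RA-PBS. All other retinas were below this range, with 33.5, 33.9, 32.1 and 34.1 in O2-PBS, 32.3, 28.7 and 31.5 in animals 9, 11 and 12 and 19.9 in animal 10. The gap between O2-PBS animal 8 (34.1) and RA-PBS animal 4 (34.2) was small. O2-PBS against RA-PBS gave a log2 fold change of -0.35 ± 0.11 (SE) and an edgeR adjusted p of 0.0716, and O2-IC100 against RA-PBS -0.46 ± 0.12 (SE) and 0.0983. Both passed the adjusted p threshold but not the minimum fold, at 1.28-fold and 1.37-fold. These were fits without animal 10. When it was kept, O2-PBS against RA-PBS stayed at -0.35 ± 0.17 (SE) with an adjusted p of 0.724, and O2-IC100 against RA-PBS reached -0.60 ± 0.17 (SE), 1.52-fold, with an adjusted p of 0.374. O2-IC100 against O2-PBS gave -0.10 ± 0.12 (SE) without animal 10 and -0.25 ± 0.17 (SE) with it, with 0.658 and 0.431. The antisense gene Gm16277 overlaps exons of Gfra1, with the same limit as for Bdnf.

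Ret, the kinase that GDNF and GFRA1 activate, followed a similar order. RA-PBS retinas had 78.7, 72.3, 64.3 and 41.9 normalized CPM, O2-PBS 62.5, 52.7, 51.7 and 47.9, and animals 9, 11 and 12 had 42.5, 43.6 and 46.4, all below O2-PBS. Animal 10 had 9.85. RA-PBS animal 4, the library with myelinating glia markers, had the lowest Ret, Gfra1 and Ngfr of its group, and the part of those markers in these values was not tested. O2-IC100 against RA-PBS gave a log2 fold change of -0.53 ± 0.17 (SE) with an edgeR adjusted p of 0.147, O2-IC100 against O2-PBS -0.27 ± 0.17 (SE) with 0.381, and O2-PBS against RA-PBS -0.26 ± 0.15 (SE) with 0.354, all without animal 10. When it was kept these were -0.85 ± 0.38 (SE) with 0.374, -0.59 ± 0.38 (SE) with 0.408 and -0.26 ± 0.38 (SE) with 1. None was called, although without animals 4 and 10 both Ret and Met were called between O2-IC100 and RA-PBS. The summed level of 8 amacrine cell markers, 564 to 910 in RA-PBS, 542 to 620 in O2-PBS and 558 to 588 in O2-IC100, and that of 12 ganglion cell markers (below) also had their highest values in RA-PBS animal 1, which had the highest Ret, Gfra1 and Ngfr.

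Hgf was lower in O2-PBS than in room air and stood near the room air mean in O2-IC100. The gene encodes hepatocyte growth factor, the ligand of MET. RA-PBS retinas had 5.39, 3.86, 2.61 and 5.42 normalized CPM, from 96, 80, 47 and 103 counts. O2-PBS retinas had 2.47, 1.98, 2.43 and 2.22, from 41, 38, 43 and 40 counts. Animals 9, 11 and 12 had 4.1, 4.27 and 4.27, from 77, 89 and 87 counts, and animal 10 had 0.505, from 4 counts. O2-PBS did not overlap with RA-PBS, whose animal 3 was nearest, and it did not overlap with animals 9, 11 and 12, which lay within the RA-PBS range.

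Means of Hgf were 4.32 ± 1.35 (SD, n = 4) in RA-PBS, 2.28 ± 0.226 (SD, n = 4) in O2-PBS and 4.21 ± 0.098 (SD, n = 3) in O2-IC100. The fall in O2-PBS against RA-PBS was 1.9-fold, with a log2 fold change of -0.93 ± 0.23 (SE) and an edgeR adjusted p of 0.0256. With all 12 animals the log2 fold change was -0.92 ± 0.47 (SE) and the adjusted p 0.797, although animal 10 belongs to neither group. All 18 further fits without animal 10 called it, with adjusted p-values of 0.00346 to 0.0826. The fit of the 8 RA-PBS and O2-PBS animals alone is among these 18, at -0.94 ± 0.26 (SE) with an adjusted p of 0.0632.

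O2-IC100 against O2-PBS gave Hgf a log2 fold change of 0.90 ± 0.25 (SE), 1.87-fold, with an edgeR adjusted p of 0.12, past the fold but not the adjusted p threshold, without animal 10. When animal 10 was kept it was 0.56 ± 0.47 (SE), 1.47-fold, with an adjusted p of 0.524. It was called in 7 of the 18 further fits without animal 10, among them DESeq2 (adjusted p = 0.0352) and the fit of the 2 groups alone (adjusted p = 0.00381), and in none of the fits that kept animal 10. Between O2-IC100 and RA-PBS the log2 fold change was -0.02 ± 0.24 (SE) without animal 10 and -0.36 ± 0.46 (SE) with it, with adjusted p-values of 0.975 and 0.703. Such a p-value does not show that the levels were equal. Gm43489 overlaps exons of Hgf on the same strand, so its reads can be shared with those of Hgf.

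Among the 11 retinas without animal 10, the summed ganglion cell markers were lowest in O2-PBS, as Hgf was. Nefl was the largest part of the sum, at 445 to 665 in RA-PBS, 337 to 363 in O2-PBS and 417 to 435 in O2-IC100. Of the 12 markers, 1 had a positive log2 fold change in O2-PBS against RA-PBS and 11 in O2-IC100 against O2-PBS. Rbpms overlapped over the groups, at 24.3 to 29, 23.7 to 30.6 and 25.8 to 29.4, and Ebf3 stayed low in O2-IC100 (33.4 to 49.2, 28.6 to 33.3 and 26.9 to 30.7). The 12 ganglion cell markers summed to 997 to 1460 normalized CPM in RA-PBS, 804 to 891 in O2-PBS and 1000 to 1040 in O2-IC100, and none was at 0. Without animal 10, 2 of 12 fell in O2-PBS against RA-PBS and 0 were called between O2-IC100 and O2-PBS. The sums of 8 Müller glia markers, 3010 to 4500, 2440 to 2800 and 2940 to 3160, and of 4 horizontal cell markers, 108 to 167, 81.6 to 95.1 and 110 to 117, kept the same order. Of these, 2 Müller glia markers and 1 horizontal cell marker fell in O2-PBS against RA-PBS, and 1 Müller glia marker rose in O2-IC100 against O2-PBS. The horizontal cell sum was mostly Calb1, at 77.8 to 135, 55.8 to 74.7 and 87.6 to 96.8. Between O2-IC100 and O2-PBS without animal 10, only 2 of the 4 horizontal cell markers had a positive log2 fold change, with a median of -0.01. The part of these cell types in the Hgf values was not tested.

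**Figure D2:**
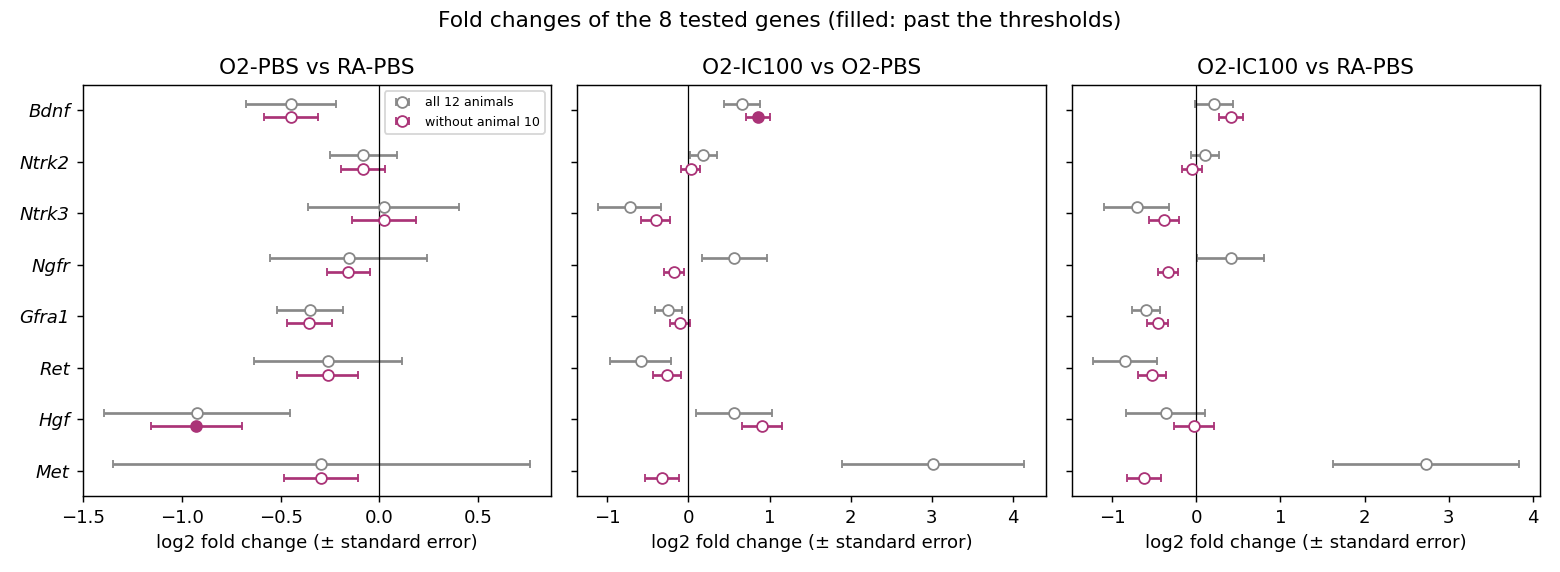
Log2 fold change (x axis) with its standard error for the 8 tested genes (y axis) in the 3 comparisons, from all 12 animals (grey) and without animal 10 (purple). Filled points are past the thresholds, which is Hgf in O2-PBS vs RA-PBS at -0.93 and Bdnf in O2-IC100 vs O2-PBS at 0.86, both without animal 10, and Met and Ngfr change sign between the fits in both comparisons of O2-IC100.

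Met, the kinase receptor of HGF, was low in 11 retinas and high in the lens-rich one. RA-PBS retinas had 8.02, 11.3, 11.9 and 7.79 normalized CPM and O2-PBS retinas 9.41, 8.24, 5.82 and 8.43. Animals 9, 11 and 12 had 5.54, 5.81 and 7.55, whereas animal 10 had 242, from 1918 counts. Without animal 10 the O2-IC100 values lay below all RA-PBS values, and O2-PBS overlapped with both groups. RA-PBS animals 2 and 3, with lens markers at 1.091 and 4.047% of counts, had more Met than animal 1, with almost none, but animal 4, at 1.236%, had the least of its group, and the part of lens in the RA-PBS values was not tested.

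The Met log2 fold change in O2-IC100 against O2-PBS was 3.02 ± 1.12 (SE) with all 12 animals and -0.32 ± 0.21 (SE) without animal 10, with edgeR adjusted p-values of 0.287 and 0.387. Against RA-PBS it was 2.73 ± 1.11 (SE) and -0.62 ± 0.21 (SE), with 0.374 and 0.168. O2-PBS against RA-PBS gave -0.29 ± 0.19 (SE) without animal 10, with an adjusted p of 0.395, and -0.29 ± 1.06 (SE) with all 12, with an adjusted p of 1. Without animal 10 DESeq2 called the difference from RA-PBS and edgeR did not.

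The promoters of the HGF ligand and its receptor are shown because Hgf was called and Met stood apart in animal 10. They are the 250 bases upstream of Hgf start 1, 1 of 2 starts in the table, and of the single Met start, both on the plus strand of GRCm38.p6. Capitals mark ACGTG and GCGTG as above, and in Met also CACGTG, the E-box bound by basic helix-loop-helix factors, and TGACTCA, the element bound by AP-1.
Hgf start 1, chr5:16553245-16553494: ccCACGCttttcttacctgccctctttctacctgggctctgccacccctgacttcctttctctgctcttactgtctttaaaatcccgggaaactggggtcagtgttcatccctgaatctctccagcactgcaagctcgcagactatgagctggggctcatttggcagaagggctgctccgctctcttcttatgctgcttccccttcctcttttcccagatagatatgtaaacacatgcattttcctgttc
Met start 1, chr6:17463707-17463956: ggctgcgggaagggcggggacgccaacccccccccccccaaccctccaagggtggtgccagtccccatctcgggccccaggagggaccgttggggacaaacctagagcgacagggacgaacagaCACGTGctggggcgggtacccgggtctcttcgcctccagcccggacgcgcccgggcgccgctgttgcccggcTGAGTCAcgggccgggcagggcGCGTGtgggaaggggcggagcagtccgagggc
Hgf start 1 holds 1 GCGTG at -248 and start 2 holds none of the motifs. Met has CACGTG at -126, which contains ACGTG on both strands, TGACTCA at -54 and GCGTG at -32. Across all 32851 windows 6.02% hold CACGTG and 4.46% TGACTCA. A match describes the sequence and was not tested for use.

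**Figure D3:**
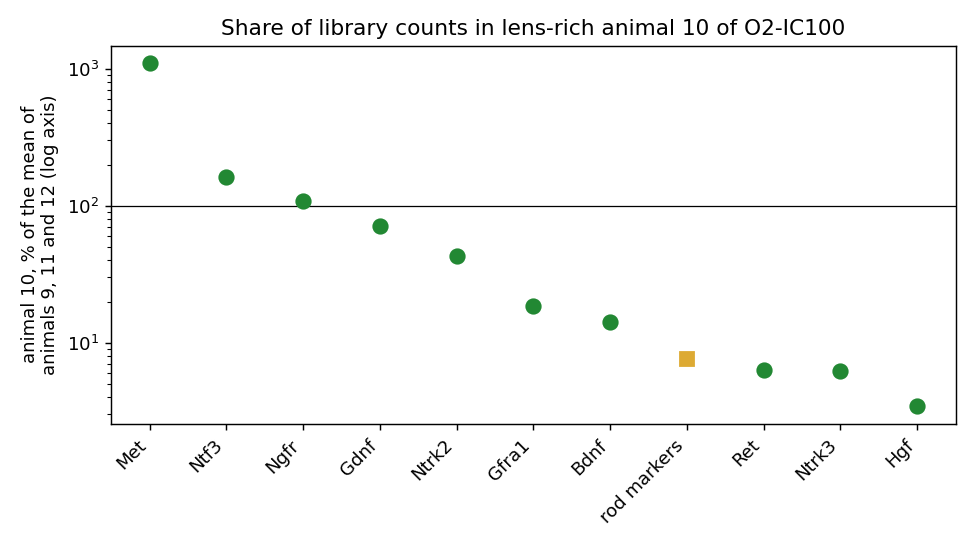
Share of library counts of each gene in animal 10 of O2-IC100 as a percentage of its mean in animals 9, 11 and 12 (y axis, log scale), sorted from high to low, with the sum of 9 rod markers as a square. Met is 11-fold above the other 3 animals, Ngfr is at 109%, and Ret, Ntrk3 and Hgf lie below the rod markers at 7.58%.

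As shares of each library's own counts, without TMM scaling, the genes split widely in animal 10. Met was at 78.5 CPM of total counts against 6.27 to 8.67 in animals 9, 11 and 12. Ngfr, at 35.1, was within their range of 28.9 to 36.5, although rod markers were down to 7.58% of their mean. Ntrk2 kept 43.1% of its mean, Gfra1 18.5% and Bdnf 14.3%. Ret kept 6.38%, Ntrk3 6.23% and Hgf 3.43%, below the rod markers. With 1 library of this kind these are values without a replicate. Normalized CPM, in contrast, includes the TMM factor, which was 0.3244 in animal 10 and 1.069 to 1.149 in the other libraries. On that scale the sums of pigment epithelium and reactive glia markers there were 6360 and 3440, against at most 232 and 963. Shares of library counts were not computed for these markers, so how much of each difference is scaling is not given. Vim alone made 2950 of the reactive glia sum on that scale, and Serpina3n was also above the other retinas, at 197. Gfap (128), Stat3 (114), Cebpd (25.1), Socs3 (17.4), Edn2 (10.6) and Lcn2 (2.9) were within the range of the other retinas in normalized CPM.

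Levels of the genes were compared with each other only per kilobase of merged exons, with lengths from GENCODE vM21 (GRCm38). In RA-PBS, Ngfr ran from 8.35 to 12 normalized CPM per kb, Ret from 6.2 to 11.6 and Gfra1 from 6.24 to 9.27, so these 3 receptors overlapped. Ntrk2 followed at 3.75 to 4.41, below all 3. Bdnf (1.27 to 1.6), Ntrk3 (0.993 to 1.87) and Met (1.01 to 1.55) overlapped with each other, and Hgf (0.363 to 0.754) lay below them. Ntf3 reached at most 0.339 and Gdnf 0.0861. Scaled by the longest transcript instead, Ntrk2 stood at a mean of 8.92 per kb, close to Gfra1 at 9.19, and Hgf at 1.25, close to Met at 1.43, so the places of Ntrk2 and Hgf in this order depend on the length used.

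With all 12 animals, groups did not overlap for 3 of the 8 genes between O2-PBS and RA-PBS, for 2 between O2-IC100 and O2-PBS and for 1 between O2-IC100 and RA-PBS, with backgrounds of 14.4%, 20.8% and 5.84% of all genes. Without animal 10, groups did not overlap for 3 of the 8 genes between O2-PBS and RA-PBS (Bdnf, Gfra1 and Hgf, all lower in O2-PBS, where 14.4% of all genes did not overlap). Between O2-IC100 and O2-PBS they did not overlap for 4 (Bdnf and Hgf higher, Ntrk3 and Ret lower, background 35.2%), and between O2-IC100 and RA-PBS for 3 (Bdnf higher, Gfra1 and Met lower, background 10.7%). The median log2 fold change of the 8 genes was -0.28, -0.14 and -0.36 in these comparisons, against -0.01, 0 and 0.02 over all tested genes.

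The genes whose pattern was most like that of a member, by Pearson correlation of log2 CPM over the 11 animals without animal 10 among 15011 genes with a mean of at least 1 CPM, were named by rule. For Hgf they were Ttc3 (r = 0.988), Slc17a6 (0.975), which encodes a vesicular glutamate transporter and is in the ganglion cell list above, and Gabrr3 (0.975), a subunit of GABA receptors. For Bdnf they were Plk5 (0.959) and Zranb2 (0.938). Ntrk3 was most like Arhgap26 (0.982), Smg1 (0.979) and Atp11a (0.973), and Ntrk2 less closely like Cnih2 (0.83), Tnfrsf21 (0.819) and Fmnl2 (0.817). All points share the 11 libraries and their 3 groups, so these values describe likeness only.

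The wider pathway was followed in 66 further genes, of which 61 were tested. In the fit of all 12 animals 0 of 61 were called in any comparison. Without animal 10, 4 rose and 2 fell in O2-PBS against RA-PBS, where 4.09% of all genes rose and 2.18% fell. Between O2-IC100 and O2-PBS 0 of 61 were called, where 0.947% of all genes were. Between O2-IC100 and RA-PBS 1 fell, where 0.617% of all genes fell. The median log2 fold change of the 61 genes was 0, -0.1 and -0.06.

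**Figure D4:**
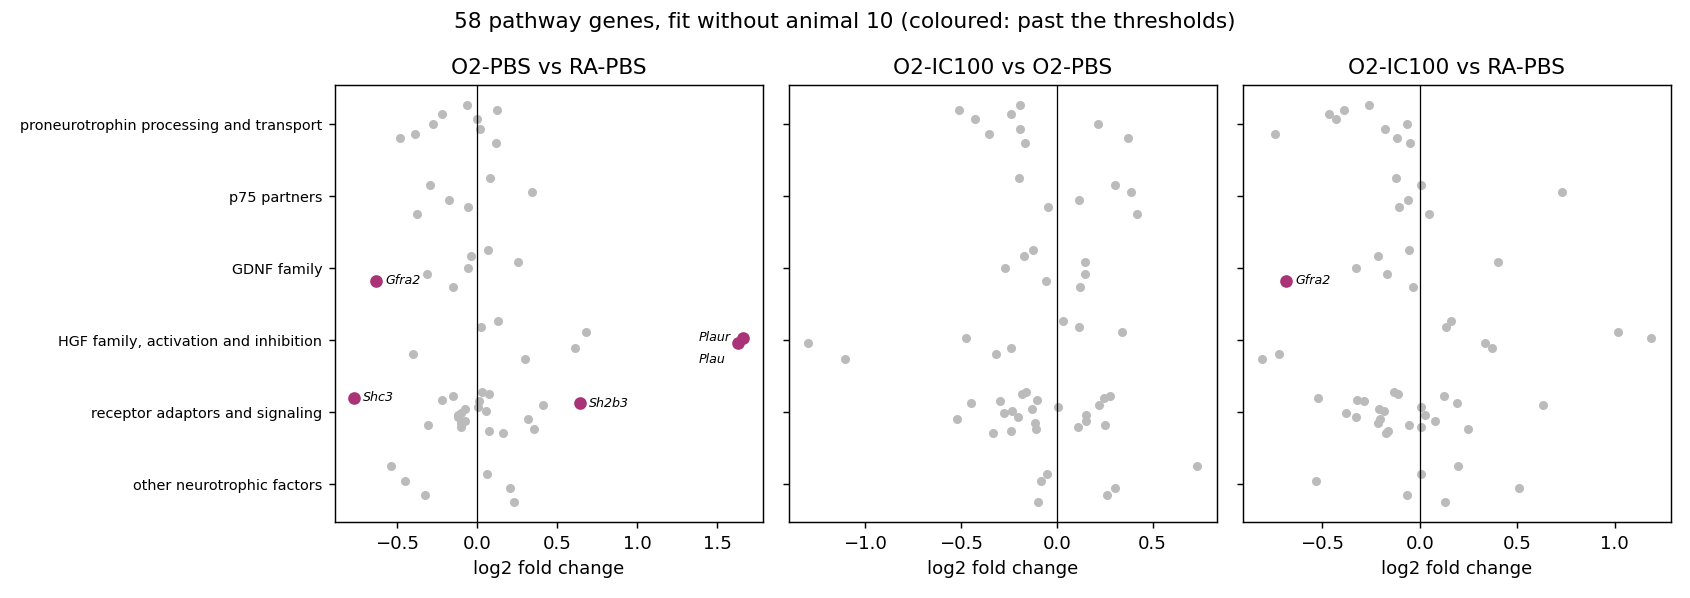
Log2 fold change (x axis) of 58 pathway genes without animal 10 in the 3 comparisons, by role (y axis). Coloured and named genes are past the thresholds, with Plau at 1.63 and Plaur at 1.66 in O2-PBS vs RA-PBS and Gfra2 below 0 in both comparisons with RA-PBS.

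Of the 9 tested genes of HGF activation and inhibition 8 had a positive log2 fold change in O2-PBS against RA-PBS, with a median of 0.61, and 3 were called. Among them were the genes of urokinase and its receptor. Urokinase is a protease that can cut HGF to its active form. Plau, urokinase itself, had 0.561, 0.386, 0.444 and 0.685 normalized CPM in RA-PBS and 2.11, 1.2, 1.58 and 1.61 in O2-PBS. The receptor gene Plaur had 0.393, 0.338, 0.555 and 0.474 against 1.63, 1.25, 1.3 and 1.44. The groups did not overlap for either gene. The log2 fold changes were 1.63 ± 0.34 (SE) for Plau and 1.66 ± 0.42 (SE) for Plaur, with edgeR adjusted p-values of 0.01 and 0.0256 without animal 10. When it was kept they were 1.63 ± 0.62 (SE) and 1.66 ± 0.42 (SE), with 0.505 and 0.153. Plau and Plaur rested on 7 to 35 counts per library of these groups.

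In O2-IC100 animals 9, 11 and 12, Plau was at 0.586, 0.768 and 0.588, near RA-PBS and below all O2-PBS values, and animal 10 was at 4.17. The log2 fold change against O2-PBS was -1.30 ± 0.36 (SE) with an edgeR adjusted p of 0.125, short of the threshold. When animal 10 was kept it was -0.20 ± 0.59 (SE), 1.15-fold, with an adjusted p of 0.867. Plaur was at 0.692, 0.528 and 1.76, and animal 12 exceeded all O2-PBS values. Its log2 fold change against O2-PBS was -0.48 without animal 10 and -0.28 ± 0.40 (SE) with it, with edgeR adjusted p-values of 0.528 and 0.713. The other 6 tested genes of this group, among them the inhibitors Spint1 and Spint2, were not called.

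Several markers of vascular cells, reactive glia and microglia also rose in O2-PBS. Without animal 10, 9 of 10 endothelial markers, 8 of 10 mural cell markers, 5 of 8 reactive glia markers and 4 of 12 microglia markers rose in O2-PBS against RA-PBS. Between O2-IC100 and O2-PBS 2 endothelial, 3 mural cell and 3 reactive glia markers fell. Endothelial sums were 195 to 274 normalized CPM in RA-PBS, 406 to 468 in O2-PBS and 306 to 341 in O2-IC100, and mural cell sums were 175 to 207, 361 to 526 and 312 to 376. Rgs5 made most of the mural cell sum in O2-IC100, at 235 to 278, against 92.2 to 143 in RA-PBS and 238 to 344 in O2-PBS. Over the 10 mural cell markers the median log2 fold change of O2-IC100 was 0.18 against RA-PBS and -0.89 against O2-PBS, without animal 10. Reactive glia sums were 228 to 632, 600 to 963 and 327 to 414, and microglia sums 57.3 to 113, 107 to 137 and 128 to 159. Among the 11 retinas without animal 10, the endothelial, mural cell and reactive glia sums had their highest values in O2-PBS, as Plau did, and the microglia sums had theirs in O2-IC100. The part of these cells in the Plau and Plaur values was not tested.

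Gfra2, the co-receptor for the GDNF relative neurturin, had 29.7, 28.9, 21.3 and 18.5 normalized CPM in RA-PBS, 16.6, 15.8, 14.4 and 16.8 in O2-PBS and 16.2, 14.7 and 14.6 in animals 9, 11 and 12. All 7 oxygen-exposed retinas were below room air. The log2 fold change was -0.63 ± 0.14 (SE) in O2-PBS and -0.69 ± 0.16 (SE) in O2-IC100, each against RA-PBS, with edgeR adjusted p-values of 0.0155 and 0.0614, and -0.06 ± 0.16 (SE) between the 2 oxygen groups with 0.864, all without animal 10. When it was kept these were -0.63 ± 0.29 (SE) with 0.694, -0.94 ± 0.29 (SE) with 0.374 and -0.31 ± 0.29 (SE) with 0.556. Animal 10, at 5.43, was lower still.

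Of the 22 receptor adaptors and signalling genes, Shc3 fell and Sh2b3 rose in O2-PBS against RA-PBS. Shc3, a neuronal adaptor of Trk receptors, had 7.69, 11.7, 9.16 and 6.16 normalized CPM in RA-PBS and 5.61, 5.06, 5.54 and 4.16 in O2-PBS, and animals 9, 11 and 12 had 5.86, 6.48 and 5.59. Its log2 fold change was -0.77 ± 0.19 (SE) with an edgeR adjusted p of 0.0231 without animal 10, and -0.77 ± 0.24 (SE) with 0.333 with it. Sh2b3, an adaptor that dampens cytokine signals, had 15.1, 14, 16 and 12.8 in RA-PBS and 26.6, 21.1, 20.8 and 22 in O2-PBS, with 16.8, 15.9 and 16.5 in animals 9, 11 and 12, below all O2-PBS values. Its log2 fold change was 0.64 ± 0.11 (SE) with an adjusted p of 0.0031 in O2-PBS against RA-PBS, and -0.45 ± 0.12 (SE) with 0.11 in O2-IC100 against O2-PBS. These were 0.64 ± 0.16 (SE) with 0.136 and -0.32 ± 0.16 (SE) with 0.312 when animal 10 was kept.

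The remaining groups of the list held no called gene without animal 10. Among these were 9 genes of proneurotrophin processing and transport such as Furin and Sort1, 6 partners of p75 such as Lingo1 and Rtn4r, and 6 other neurotrophic factors such as Manf and Ptn.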

How the data were processed

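Per the labels, RNA was polyA-selected and sequenced as 150 bp paired-end reads. Per the study's methods, the authors aligned the reads to the mouse build GRCm39_104 with Kallisto and summed them per gene with tximport. The deposited table holds expected counts that are not scaled for depth, and 42.2% of its values are not whole. After rounding to whole numbers, edgeR 4.0.16 under R 4.3.3 gave all main results (TMM, filterByExpr, robust quasi-likelihood F test, 3 groups in 1 fit, no covariate). DESeq2 1.42.0, which the study used, and limma 3.58.1 (voom) were alternatives. Of 36131 genes 35374 had a symbol. Thresholds follow the study. Replicates are separate animals by label. In a simulation of O2-PBS against RA-PBS on 16409 genes, edgeR recovered 84.6% of 195 tested genes changed 3-fold, with 5 false calls. It took gene means and spread from the fit without animal 10, so it held no lens-rich library. Changes smaller than 3-fold, as those of the called members were, were not simulated, so it does not give the power to detect them. Members, lists and tests were chosen with earlier results of these data known. Named genes are all 10 members, pathway genes past the thresholds in either fit, and the 3 genes most like Bdnf, Hgf, Ntrk2 and Ntrk3, and a few genes that the rule or the lists hold are counted but not reported here by name. Promoters are from RefSeq (GRCm38.p6), matched by symbol for 8 of the 10 genes, and motifs were searched on both strands. Marker lists of 17 cell types or tissues, 138 genes, were summed per animal. Each SD is between the animals of a group, and each SE is from the edgeR fit.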

Additional observations from a re-analysis of the deposited data

Results flagged for a closer look

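In each group of 4, the retina farthest from the others was compared with the range of its group, for 10 genes in 3 groups. Of these 30 sets 8 were past Dixon's 95% critical value, where chance gives about 1 in 20, and 6 of the 8 were animal 10 of O2-IC100, the lens-rich library. Its normalized CPM was far below animals 9, 11 and 12 for Ntrk3 (6.94), Ret (9.85) and Hgf (0.505), and far above them for Ntf3 (1.51, from 12 counts), Ngfr (108) and Met (242). These values include its TMM factor of 0.3244, against 1.069 to 1.149 in the other libraries. As a share of its own counts, Ngfr in animal 10 was 35.1 CPM, within the 28.9 to 36.5 of animals 9, 11 and 12. Animal 5 of O2-PBS had a high Ntrk3 (48.2). Animal 1 of RA-PBS had a low Gdnf (0.0561), which is a single count.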

How the results depend on the processing

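No paired analysis was possible because the labels number the animals from 1 to 12 with no number shared between groups. With all 12 animals no member and no pathway gene was called, and the counts below are members, then pathway genes. Leaving out 1 animal gave 0 to 1 members and 0 to 6 pathway genes between O2-PBS and RA-PBS, 0 to 1 and 0 between O2-IC100 and O2-PBS, and 0 and 0 to 1 between O2-IC100 and RA-PBS. The highest values were those without animal 10 (1 and 6, 1 and 0, 0 and 1, in this order), and without animal 3 pathway genes in the first comparison were 1. Without animals 1 and 10 the counts were 1 and 5, 2 and 1, 0 and 0. This pair was set as lens-rich from earlier results, but animal 1 carries almost no lens markers. Fits of the 2 compared groups gave 1 and 6, 0 and 0, 0 and 0. DESeq2 gave 0 and 4, 0 and 0, 1 and 3 with all animals and 1 and 6, 2 and 0, 1 and 3 without animal 10. In the first comparison limma voom called 2 pathway genes and upper quartile scaling 1. A lens covariate gave 4 and 13, 0 and 0, 4 and 20. A Y-linked covariate without animal 10 gave 1 and 4, 0 and 0, 1 and 4. The number of all genes called moved between fits too. In the same order of comparisons DESeq2 called 412, 125 and 299 genes with all animals and 1167, 383 and 567 without animal 10. The all-gene count of the lens covariate fit with all animals is not given here, so its counts are not a result about these genes.

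Alternatives chosen after seeing the data all left out animal 10. Leaving out a second animal gave 1 member and 4 to 7 pathway genes, 0 to 2 and 0 to 2, and 0 to 2 and 0 to 11. Over these 11 fits 784 to 1343, 0 to 432 and 21 to 925 of all genes were called. The 9 other fits without animal 10, planned ones included, called 867 to 3146, 36 to 789 and 18 to 1597 of all genes. Voom gave 1 and 6, 1 and 0, 0 and 1, RLE scaling 1 and 6, 1 and 0, 0 and 1, no count filter 1 and 5, 1 and 0, 0 and 1, 2-group fits 1 and 6, 2 and 4, 0 and 0, and a lens covariate 2 and 8, 2 and 1, 2 and 6.

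Signs of log2 fold changes turned mainly without animal 10. Ngfr, Met and Ntrk2 against RA-PBS were then -0.33, -0.62 and -0.05, and Ngfr and Met against O2-PBS -0.18 and -0.32. When 1 animal was left out Ngfr reached 0.77 and Met 3.41 against O2-PBS, and Ngfr 0.62, Met 3.11 and Ntrk2 0.18 against RA-PBS. Against O2-PBS Ngfr and Met were also -0.18 and -0.32 without animals 1 and 10, -0.2 and -0.34 in DESeq2 without animal 10 and -0.35 and -0.54 with the Y-linked covariate without animal 10. Against RA-PBS they were, in the same fits, -0.26 and -0.7, -0.35 and -0.64, and -0.4 and -0.71, and Ntrk2 was -0.08 without animals 1 and 10 and -0.07 in DESeq2 without animal 10. In DESeq2 and voom with all 12 animals these signs did not turn. Hgf between O2-IC100 and RA-PBS was 0.1 without animals 1 and 10, 0.11 without animals 4 and 10, and, also without animal 10, 0.09 with the Y-linked covariate and 0.04 in voom. Ntrk3 between O2-PBS and RA-PBS ranged from -0.11 to 0.2 when 1 animal was left out, with -0.08 and -0.04 without animals 4 and 5, and was -0.1 without animals 1 and 10. With the lens covariate Ntrk3, Ntrk2, Ngfr and Met in that comparison were -0.56, 0.13, 0.31 and 1.29. Between O2-IC100 and O2-PBS Plau was 0.09, 0.03 and 0.08 without animals 9, 11 and 12, and Shc3 -0.02 without animal 11, against -1.3 and 0.25 without animal 10. The cause was not tested. Low counts limit Ntf3 and Gdnf, and 3 animals are left in O2-IC100 without animal 10.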
